A study of Arabidopsis thaliana with 12 samples.

Results

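OK100-oct is an Arabidopsis thaliana line in the Col-0 background with null mutations in 8 genes of the B2 and B3 Raf-like protein kinases (RAFs): RAF3, RAF4, RAF5, RAF8, RAF10, RAF11, AT3G06620 and AT3G06640. Its seedlings under control conditions were compared with wild-type Col-0 seedlings under control conditions, 3 libraries each and 6 of the 12 libraries of the study. The libraries were chosen by genotype and treatment alone. The other 6 libraries hold both genotypes treated with abscisic acid (ABA), and they were used here as a second set for the same genotype comparison. Seedlings were 12 days old according to the sample labels, whereas the methods of the study give an age of 2 weeks. The labels call the mutant m9. It was taken as OK100-oct, the line named in the methods, although the label itself does not exclude a related line with a further mutation. The mutations were made by CRISPR-Cas9 and only 1 line was sequenced, so the kinase mutations cannot be told apart from other changes that this line may carry. Nothing states that the 3 libraries of a group came from separate cultures, so the p-values measure the spread between libraries. That spread was estimated over all 12 libraries.

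RAF kinases of the B2 and B3 groups phosphorylate and activate SnRK2 kinases, which pass the ABA signal on to bZIP transcription factors and ion channels. ABA itself binds to the PYR/PYL receptors, which then block the clade A PP2C phosphatases that hold the SnRK2s inactive. Unstressed seedlings contain some ABA, so genes that this pathway drives, such as those of dehydrins and other late embryogenesis abundant (LEA) proteins, can also be read without added hormone. ABA signaling is known to interact with salicylic acid and pattern-triggered immunity, in many cases in opposite directions.

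Total counts per library were between 22265884 and 24048676 in OK100-oct and between 16632701 and 19945936 in the wild type. Replicate 3 of the wild type lay apart from replicates 1 and 2. Its log2 CPM values (CPM, counts per 1000000 after TMM scaling of the library size) had Pearson correlations across genes of 0.987 and 0.978 with replicates 1 and 2, which correlated at 0.989 with each other. Among 18683 genes with at least 1 CPM, 57, 50 and 17 departed at least 2-fold from the mean of the other replicates in the OK100-oct libraries 1 to 3, against 56 in wild type replicate 1, 203 in wild type replicate 2 and 371 in wild type replicate 3. Camalexin and glucosinolate synthesis genes stood lower in wild type replicate 3 than in the other wild type libraries, with a median difference of -0.86 (log2) and 11 genes lower by at least 2-fold. Jasmonate and ethylene defence genes stood higher there by a median of 0.40, and senescing leaf markers by 0.58. The summed level of the sugar and starvation genes was 10644 CPM in this library and 5581 and 5662 CPM in the others, so calls that were lost without this library are given beside the genes named. Calls lost without another control library are mostly given as counts only.

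**Figure D1:**
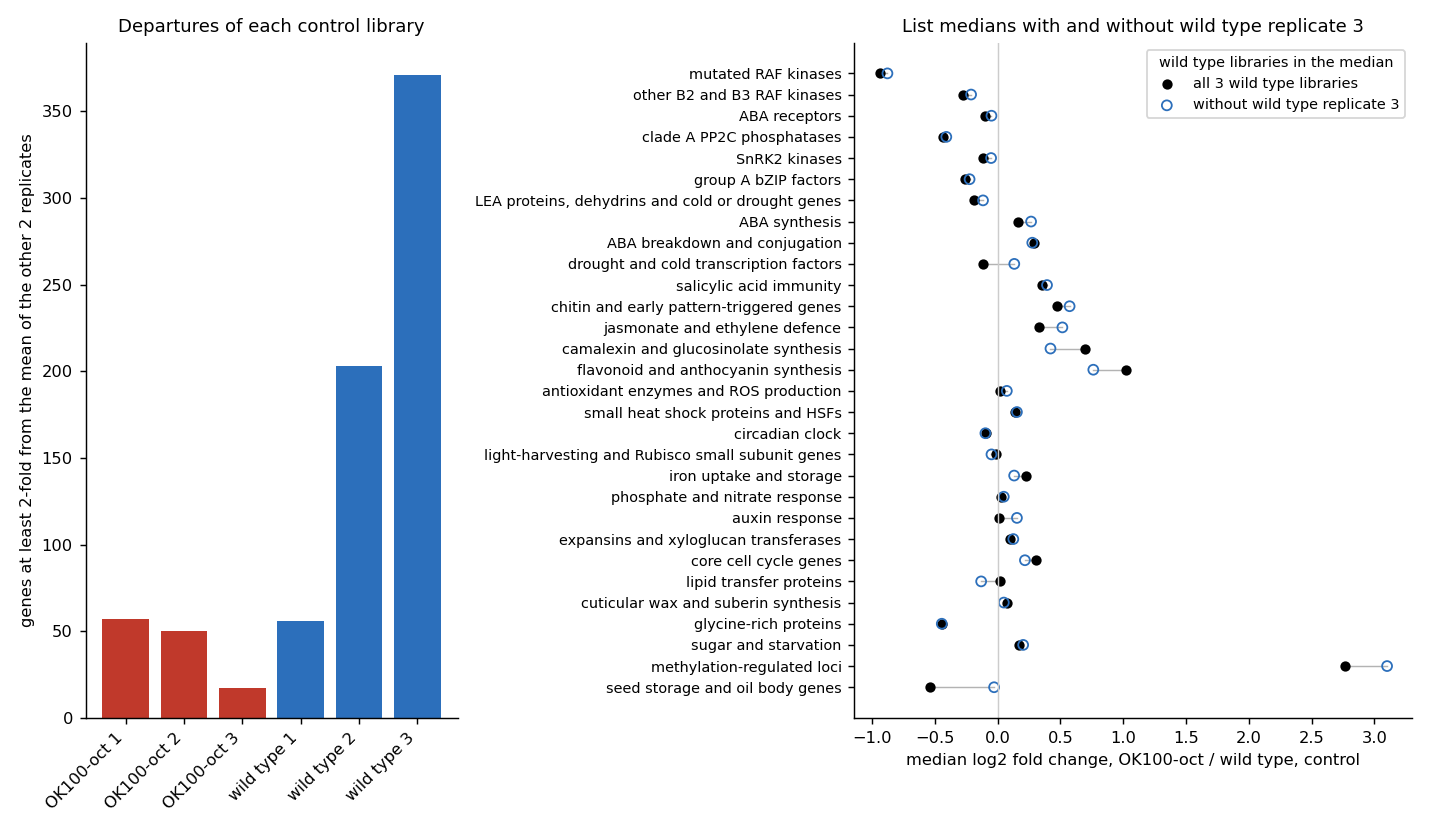
Left, number of genes per control library that depart at least 2-fold from the mean of the other 2 replicates, with OK100-oct libraries in red and wild type libraries in blue. Right, median log2 fold change of OK100-oct over the wild type for each gene list (x axis), with all 3 wild type libraries (filled) and without wild type replicate 3 (open). Wild type replicate 3 has the tallest bar at 371 genes, and the median of camalexin and glucosinolate synthesis is 0.42 without it, against 0.69 with it.

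Markers of the seedling tissues were checked in the same libraries. All 13 root markers, 4 leaf mesophyll markers and 7 guard cell markers were detected in both genotypes. All 11 embryo or seed markers were under 1 CPM in every library, and CRU3, OLEO2, EM6 and FUS3 were at 0 counts. Of the 13 root markers, PLT2, a root meristem transcription factor, and the root beta-glucosidase gene BGLU23 were higher in OK100-oct (FDR < 0.05). The tonoplast aquaporin gene TIP2;3 was lower. Of all tested genes, 2.58% were higher and 2.29% were lower. PLT2 failed narrowly without wild type replicate 3 (adjusted p = 0.0506). The summed level of the root markers was 2383 to 2871 CPM in OK100-oct and 1951 to 2008 CPM in the wild type, and BGLU23 alone had 2641, 2171 and 2581 CPM in OK100-oct and 1741, 1737 and 1639 CPM in the wild type. The part of root tissue in the results below was not tested. In whole seedlings, fewer cells of a type and less RNA per cell cannot be told apart.

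Differences between unstressed OK100-oct and wild-type seedlings were few and mostly small. The counts of 20617 genes were tested with edgeR's quasi-likelihood test. At a false discovery rate (FDR, the adjusted p) under 0.05 and a change of at least 3-fold, 73 genes were higher in OK100-oct, 0.354% of those tested, and 29 were lower, 0.141%. At the FDR alone, 532 genes (2.58%) stood higher and 472 (2.29%) lower, and 734 of these 1004 genes differed by less than 2-fold. The counts depended on single libraries. Without wild type replicate 3, 56 genes (0.268%) were at least 3-fold higher and 23 (0.11%) lower, of which 45 and 21 were among the 73 and 29, and 331 (1.59%) and 227 (1.09%) genes passed the FDR alone. Without OK100-oct replicate 1, 249 genes were higher and 257 lower at the FDR, without OK100-oct replicate 3, 202 and 142, and without wild type replicate 2, 839 and 909. The 3-fold lower genes numbered 19 without OK100-oct replicate 3 and 45 without wild type replicate 2. All 102 genes of the 3-fold lists kept their direction without wild type replicate 3. Control replicates differed more from each other than ABA-treated replicates did. The chi-square per gene between 2 replicates, their difference relative to counting error, was 8.71 to 44.8 under control conditions. With ABA it was 4.27 to 8.85. When only the 6 control libraries were fitted, so that the ABA libraries no longer shared in the estimate of the spread, 29 genes were higher and 10 lower with the 3-fold minimum, all of them among the 73 and 29, and 63 and 48 passed the FDR alone. Of the 107 genes named by rule, 53 no longer passed in that fit.

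The transcripts of the mutated kinases themselves were examined first. Counts of 5 of the 8 mutated genes were lower in OK100-oct, against 2.29% of all tested genes, and none of the 8 was higher. RAF11 (AT1G67890) had 15.4, 15.9 and 15.7 CPM in OK100-oct, against 29.9, 33.5 and 32.9 CPM in the wild type. RAF4 (AT1G18160) had 31.1, 35.1 and 34.2 CPM in OK100-oct, against 59.7, 67.3 and 68.5 CPM in the wild type. RAF3, RAF5 and AT3G06620 lay similarly apart, and the log2 fold changes of the 5 genes were between -1.14 and -0.92. The libraries of the genotypes did not overlap for any of the 5. Of all 20617 tested genes, 2003 lay lower in every OK100-oct library than in any wild type library. RAF10 had 17.8, 16.1 and 15.6 CPM in OK100-oct, against 18.1, 19.6 and 22.2 CPM in the wild type, and its log2 fold change of -0.28 did not pass (adjusted p = 0.136). RAF8 and AT3G06640 were counted at no more than 2.17 CPM in any of these libraries and did not pass either. Whether these transcripts held the mutations cannot be read from counts per gene.

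Of the 4 other B2 and B3 RAF genes, which are not listed as mutated, EDR1 or RAF2 (AT1G08720, chromosome 1, 2773941 to 2779308) was lower as well. EDR1 is a negative regulator of disease resistance and cell death, and its loss is known to increase resistance to powdery mildew. Its counts were 12.2, 13.8 and 13 CPM in OK100-oct, against 27.9, 23.4 and 35.0 CPM in the wild type (log2 fold change -1.15, SE 0.14, adjusted p = 0.000681). This difference was close in size to that of RAF5 (-1.14), and it was -1.34 in the ABA-treated libraries (adjusted p = 8.92e-06). RAF6 and RAF12 had log2 fold changes of -0.35 and -0.20, which did not pass.

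**Figure D2:**
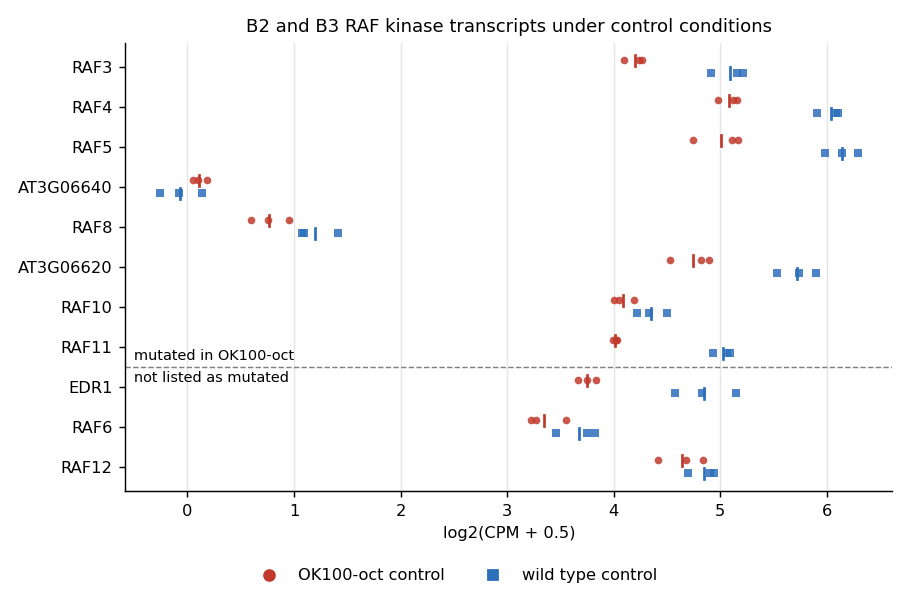
Levels of 11 B2 and B3 RAF transcripts in each control library, as log2(CPM + 0.5) on the x axis. Red circles are the 3 OK100-oct libraries and blue squares the 3 wild type libraries, with the mean of each as a vertical bar. RAF3, RAF4, RAF5, RAF11, AT3G06620 and EDR1 lie lower in every OK100-oct library than in any wild type library, as do RAF8 and RAF10 by smaller gaps. The same held for 2003 of all 20617 tested genes.

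Among genes of the ABA response, a small set was lower in unstressed OK100-oct, led by the dehydrin gene RAB18. RAB18 (AT5G66400) encodes a dehydrin, a hydrophilic protein that accumulates in drying tissue, and had 3.44, 6.38 and 6.82 CPM in OK100-oct, against 29.0, 42.3 and 37.7 CPM in the wild type. The highest OK100-oct library was thus more than 4-fold below the lowest wild type library (log2 fold change -2.72, SE 0.22, adjusted p = 1.55e-05). HIS1-3 (AT2G18050), which encodes a drought-inducible linker histone H1, had 1.09, 2.51 and 1.18 CPM in OK100-oct, against 7.62, 7.73 and 14.5 CPM in the wild type (log2 fold change -2.65, SE 0.29, adjusted p = 0.000309). LEA7 (AT1G52690) encodes a LEA protein and was at the edge of detection, with 0.112, 0.329 and 0.163 CPM in OK100-oct, against 0.501, 1.28 and 1.15 CPM in the wild type (log2 fold change -2.26, SE 0.40, adjusted p = 0.00752). A further LEA family gene, AT3G02480, had 0.150, 0.123 and 0.286 CPM in OK100-oct, against 0.651, 1.11 and 0.912 CPM in the wild type (-2.22, adjusted p = 0.00279). This gene was chosen after its values were seen. RAB18 and LEA7 each overlap a gene on the opposite strand (AT5G66410 and AT1G52695), and no source used here says whether the counting used strand.

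RAB18 and LEA7 carry the ABA-responsive element that group A bZIP factors bind, searched as ACGTGNC on either strand. Their 250 bases before the transcription start are shown because they match this search, which those of HIS1-3 and AT3G02480 do not. Those of AT3G02480 do hold CACGTG, without the last C that the search requires. RAB18 lies at chr5:26519448-26519697 (minus strand) and LEA7 at chr1:19619474-19619723 (plus strand), from the RefSeq TAIR10.1 genome. Sequences run 5′ to 3′ toward the gene, and capitals mark ACGTGNC or its reverse complement.
RAB18: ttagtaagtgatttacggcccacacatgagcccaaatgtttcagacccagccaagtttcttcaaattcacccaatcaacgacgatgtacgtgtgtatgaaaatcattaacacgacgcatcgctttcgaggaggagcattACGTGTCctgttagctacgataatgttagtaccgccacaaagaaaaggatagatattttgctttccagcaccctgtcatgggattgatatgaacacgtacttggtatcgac
LEA7: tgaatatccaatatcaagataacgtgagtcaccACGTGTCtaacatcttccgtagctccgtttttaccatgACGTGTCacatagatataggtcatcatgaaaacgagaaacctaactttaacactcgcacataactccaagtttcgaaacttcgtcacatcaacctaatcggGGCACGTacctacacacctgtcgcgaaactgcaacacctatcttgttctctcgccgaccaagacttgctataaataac
RAB18 has 1 such stretch and LEA7 has 3. Among promoters from 250 bases before to 50 bases after the start, ACGTGNC was found in 7 of the 29 genes called lower (24.1%), in 9 of the 73 called higher (12.3%) and in 11.8% of all tested genes. It overlaps the G-box CACGTG in part. A match is a description of the sequence, and binding was not measured.

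Most of the ABA pathway did not pass the test in unstressed seedlings. Of the 23 genes of LEA proteins, dehydrins and cold or drought responses, 2 were lower (RAB18 and LEA7) and 1 was higher, beside 2.29% and 2.58% of all tested genes, so that the higher count is near the background. The higher gene was the dehydrin gene ERD10, with 115, 108 and 114 CPM in OK100-oct, against 88.8, 87.6 and 67.5 CPM in the wild type (0.47, adjusted p = 0.0455). The median log2 fold change of the list was -0.19, against -0.00166 over all tested genes. ERD10 no longer passed without wild type replicate 3 (adjusted p = 0.117). COR15A, which encodes a chloroplast protein of cold tolerance, had 35.8, 32.5 and 23.3 CPM in OK100-oct and 28.6, 32.5 and 21.7 CPM in the wild type (0.15, adjusted p = 0.681). RD29B, a classic reporter gene of ABA, had 1.35, 1.89 and 1.43 CPM in OK100-oct and 1.2, 3.78 and 4.32 CPM in the wild type (-0.99, adjusted p = 0.109), with wild type replicate 1 below every OK100-oct library and the other 2 above. KIN1, another cold and ABA gene, had 2.77, 2.02 and 1.43 CPM in OK100-oct and 2.96, 3.39 and 2.11 CPM in the wild type (-0.43, adjusted p = 0.303).

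Upstream of these genes, 3 of the 9 clade A PP2C genes were lower, against 2.29% of all tested genes, and none was higher. PP2CA had 10.1, 11.6 and 10.9 CPM in OK100-oct, against 14.6, 14.2 and 15.2 CPM in the wild type (-0.43, adjusted p = 0.0223), ABI2 differed by -0.53 (adjusted p = 0.0250) and HAI1 by -1.1 (adjusted p = 0.0477). The phosphatases of these genes inhibit SnRK2s, and transcription of the genes themselves is known to be induced by ABA. The list had a median of -0.43. Without wild type replicate 3 only 1 of them, ABI2, passed, and with only the 6 control libraries fitted none of the 3 did (adjusted p = 0.143 for PP2CA, 0.211 for ABI2 and 0.234 for HAI1). PP2CA and ABI2 each passed in 3 of the 6 fits that left out 1 control library. Of the 7 tested group A bZIP genes, ABI5, a regulator of seed and seedling ABA responses, was lower with 3.14, 3.5 and 3.39 CPM in OK100-oct, against 3.96, 6.18 and 5.86 CPM in the wild type (-0.67, adjusted p = 0.0477, and adjusted p = 0.139 without wild type replicate 3). None of the 10 tested ABA receptor genes and none of the 10 SnRK2 genes passed in either direction. Among the receptors, PYL5 had the lowest p (-0.46, adjusted p = 0.0957), and among the SnRK2 genes SnRK2.6, the kinase of stomatal closure, with -0.24, adjusted p = 0.134. NCED3, which encodes the dioxygenase of stress-induced ABA synthesis, was higher, with 1.42, 1.07 and 1.1 CPM in OK100-oct, against 0.401, 0.779 and 0.384 CPM in the wild type (1.22, adjusted p = 0.0326), and also failed without wild type replicate 3 (adjusted p = 0.121). No gene of ABA breakdown or conjugation passed, and CYP707A1, an ABA 8'-hydroxylase gene, was nearest (-0.55, adjusted p = 0.0712). The guard cell anion channel gene SLAC1 had 1.87, 2.18 and 1.39 CPM in OK100-oct, against 3.81, 3.12 and 3.6 CPM in the wild type (-0.95, adjusted p = 0.0247, and adjusted p = 0.0551 without wild type replicate 3), while the other 6 guard cell markers did not pass.

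Several defence genes were higher in OK100-oct, and of the 30 gene lists that of chitin and early pattern-triggered genes had the most members called higher. In that list, 11 of 31 tested genes were higher and 2 were lower, against 2.58% and 2.29% of all genes, and the median log2 fold change was 0.47. WRKY33 (AT2G38470, chromosome 2, 16108235 to 16110766), a transcription factor needed for resistance to necrotrophic fungi, had 60.7, 128 and 93.2 CPM in OK100-oct, against 40.0, 25 and 44.9 CPM in the wild type (log2 fold change 1.36, SE 0.24, adjusted p = 0.00821). WRKY40 (AT1G80840), a rapidly induced WRKY factor that represses immune and ABA genes, had 14.6, 35.3 and 26.9 CPM in OK100-oct, against 8.67, 5.84 and 11.4 CPM in the wild type (log2 fold change 1.56, SE 0.27, adjusted p = 0.00752). SZF1 (AT3G55980), a CCCH zinc finger gene of salt and defence responses, had 36.9, 67.8 and 51.2 CPM in OK100-oct, against 22, 24.1 and 26.696 CPM in the wild type (log2 fold change 1.1, SE 0.17, adjusted p = 0.00364). In each of the 3, every OK100-oct library lay above every wild type library, and OK100-oct replicate 2 was the highest. Such a separation upward was found in 2334 of all 20617 tested genes.

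RBOHD, the NADPH oxidase of the immune oxidative burst, had 32.2, 30.6 and 33.5 CPM in OK100-oct, against 22.1, 20.1 and 17.7 CPM in the wild type (log2 fold change 0.68, SE 0.10, adjusted p = 0.00182), with little spread within either genotype. SZF2 (the paralog of SZF1), WRKY18, WRKY46, WRKY53, ERF5, ERF6 and ERF105, all transcription or RNA-binding factors of early defence, were higher by log2 fold changes between 0.55 and 1.43. The genes that were lower were WRKY29 and NHL10. WRKY29, a WRKY factor placed downstream of flagellin perception, had 15.1, 14.6 and 14.8 CPM in OK100-oct, against 23.4, 25.1 and 22.8 CPM in the wild type (log2 fold change -0.68, SE 0.08, adjusted p = 0.000628). NHL10, a gene induced by flagellin and other elicitors, had 0.412, 0.658 and 0.245 CPM in OK100-oct, against 1.55, 0.946 and 1.63 CPM in the wild type (-1.65, adjusted p = 0.0319). CERK1, the chitin receptor kinase, and FRK1, a late pattern-triggered marker, did not pass (-0.12, adjusted p = 0.499, and 0.62, adjusted p = 0.303). The summed level of the list was 686, 1117 and 890.4 CPM in the OK100-oct libraries, against 587, 516 and 765 CPM in the wild type libraries, so the sums overlapped. Without wild type replicate 3, 12 genes of the list were higher and 1 was lower, and WRKY46, WRKY53 and NHL10 did not pass (adjusted p = 0.0596, 0.102 and 0.0860). With only the 6 control libraries fitted, WRKY33, WRKY40 and SZF1 did not pass (adjusted p = 0.0907, 0.0907 and 0.0646).

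WRKY factors bind the W-box, searched here as TTGACC or TTGACT on either strand. The 250 bases before the start are shown for WRKY33 (chr2:16107985-16108234, plus strand) and SZF1 (chr3:20775970-20776219, plus strand), from RefSeq TAIR10.1, since both were higher and hold W-boxes there. Those of WRKY40, WRKY18, WRKY46 and ERF6, also higher, hold none. Those of the lower genes WRKY29 and NHL10 hold 2 and 1. Capitals mark the W-box or its reverse complement.
WRKY33: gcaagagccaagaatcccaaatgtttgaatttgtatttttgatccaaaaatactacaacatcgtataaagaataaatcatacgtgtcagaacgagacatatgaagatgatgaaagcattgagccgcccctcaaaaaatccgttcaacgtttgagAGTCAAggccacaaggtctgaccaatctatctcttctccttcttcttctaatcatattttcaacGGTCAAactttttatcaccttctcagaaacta
SZF1: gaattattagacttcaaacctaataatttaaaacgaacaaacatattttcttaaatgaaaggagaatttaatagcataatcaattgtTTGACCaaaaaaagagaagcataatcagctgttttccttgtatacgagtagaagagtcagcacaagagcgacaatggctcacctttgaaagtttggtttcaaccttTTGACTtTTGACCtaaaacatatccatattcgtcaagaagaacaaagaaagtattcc
WRKY33 has 2 such stretches and SZF1 has 3. From 250 bases before to 50 after the start, the W-box was found in 21 of the 32 members of this list (65.6%), in 27 of the 73 genes called higher (37.0%), in 13 of the 29 called lower (44.8%) and in 32.7% of all tested genes.

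Of the 16 tested genes of salicylic acid immunity, 4 were higher and none was lower, against 2.58% and 2.29% of all tested genes. The median of the list was 0.36. WRKY70 (AT3G56400, chromosome 3, 20908711 to 20910623), a factor that favours salicylic acid over jasmonate responses, had 24.4, 37.4 and 16.3 CPM in OK100-oct, against 8.32, 7.12 and 7.49 CPM in the wild type (log2 fold change 1.77, SE 0.28, adjusted p = 0.00409). SARD1 (AT1G73805), which activates the salicylic acid synthesis gene ICS1, had 6.4, 9.18 and 3.14 CPM in OK100-oct, against 1.70, 1.89 and 1.44 CPM in the wild type (log2 fold change 1.90, SE 0.35, adjusted p = 0.00949). LURP1 (AT2G14560), a gene of resistance to downy mildew, had 4.12, 5.14 and 1.39 CPM in OK100-oct, against 0.0501, 0.334 and 0.288 CPM in the wild type (log2 fold change 3.97, SE 0.80, adjusted p = 0.0152). In these genes OK100-oct replicate 3 was the lowest of its group and still above every wild type library, a separation found in 2334 of all 20617 tested genes. With only the 6 control libraries fitted, SARD1 did not pass (adjusted p = 0.0754), while WRKY70 and LURP1 did (0.0379 and 0.0447). EDS5, the transporter that exports the salicylic acid precursor from the chloroplast, passed narrowly (0.69, adjusted p = 0.0497) and failed without wild type replicate 3 (adjusted p = 0.146).

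ICS1 itself had 13.1, 21.6 and 14 CPM in OK100-oct and 13.4, 11.8 and 12.1 CPM in the wild type (0.38, adjusted p = 0.239). PR1, the standard end-point marker of this pathway, had at most 0.0823 CPM in any of the 6 libraries, and PR2 was at 0 counts in all of them. PR5 had 9.73, 7.90 and 11.7 CPM in OK100-oct and 7.82, 9.40 and 6.15 CPM in the wild type and did not pass (adjusted p = 0.361). Other genes of immunity on the 3-fold list were not members of these lists and were chosen after their values were seen. WAK1, a cell wall-associated receptor kinase, had 14.5, 20.5 and 10.5 CPM in OK100-oct, against 4.71, 5.51 and 3.02 CPM in the wild type (1.79, adjusted p = 0.00705). ACD6, an ankyrin protein that promotes salicylic acid signaling, had 29.7, 31.5 and 14.5 CPM in OK100-oct, against 7.67, 11.2 and 3.70 CPM in the wild type (1.75, adjusted p = 0.0167). WRKY54, the closest homolog of WRKY70, had 4.94, 4.07 and 2.61 CPM in OK100-oct, against 1.35, 1.0 and 1.44 CPM in the wild type (1.61, adjusted p = 0.00949). AT1G72910, which encodes a TIR domain protein, had 8.57, 13 and 8.25 CPM in OK100-oct, against 2.71, 2.11 and 2.5 CPM in the wild type (2.02, adjusted p = 0.000874), but 15% of its exon windows of 50 bases are shared with AT1G72930. SARD1 shares 17.9% of its windows with AT1G73790, which overlaps it on the opposite strand.

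Jasmonate and ethylene defence genes showed fewer calls. Of 30 tested genes 3 were higher and none was lower, against 2.58% and 2.29% of all tested genes. The median was 0.33, and 27 genes were above 0, against 10234 of all 20617 tested genes. AOC2, an allene oxide cyclase of jasmonate synthesis, had 206, 189 and 194 CPM in OK100-oct, against 116, 97.4 and 119.7 CPM in the wild type (log2 fold change 0.82, SE 0.13, adjusted p = 0.00361). AOC1, its tandem neighbour, had 32.9, 36.7 and 37.4 CPM in OK100-oct, against 22.3, 16.2 and 25.4 CPM in the wild type (0.74, adjusted p = 0.0124), and ERF2, an ethylene response factor, had 11.5, 17.36 and 15.8 CPM in OK100-oct, against 5.76, 5.84 and 9.84 CPM in the wild type (1.05, adjusted p = 0.0164). Wild type replicate 3 was the highest wild type library for all 3 genes, and without it 7 genes of the list passed and the median was 0.52. AOC2, AOC1 and ERF2 passed in 6, 5 and 4 of the 6 fits that left out 1 control library. With only the 6 control libraries fitted, AOC2 passed (adjusted p = 0.0250), while AOC1 and ERF2 did not (adjusted p = 0.0954 and 0.107). ORA47 (AT1G74930), an ERF factor that activates jasmonate and ABA synthesis genes, was on the 3-fold list with 5.17, 8.60 and 5.64 CPM in OK100-oct, against 1.55, 0.890 and 1.73 CPM in the wild type (log2 fold change 2.2, SE 0.34, adjusted p = 0.00383).

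Genes of camalexin and glucosinolate synthesis, which make indole and sulfur-containing defence compounds of the Brassicaceae, were higher in a way that rested in part on wild type replicate 3. Of 25 tested genes 5 were higher and none was lower, against 2.58% and 2.29% of all tested genes. All 25 had a log2 fold change above 0, against 10234 of all 20617 tested genes, and the median was 0.69. SOT16, the sulfotransferase of indole glucosinolates, had 82.5, 77.2 and 78.8 CPM in OK100-oct, against 56.5, 46.5 and 44.8 CPM in the wild type (log2 fold change 0.69, SE 0.10, adjusted p = 0.00182), and MYB51, the activator of that branch, had 15.5, 19.5 and 14 CPM in OK100-oct, against 10.2, 7.68 and 7.73 CPM in the wild type (log2 fold change 0.93, SE 0.17, adjusted p = 0.00905). Both were separated from all 3 wild type libraries, as were 2334 of all 20617 tested genes in this direction. With only the 6 control libraries fitted, SOT16 passed (adjusted p = 0.0483) and MYB51 did not (adjusted p = 0.0633). MAM1, the chain-elongating synthase of aliphatic glucosinolates, had 193, 128 and 198 CPM in OK100-oct, against 99.9, 109.8 and 49.7 CPM in the wild type (1.0, adjusted p = 0.0373), with wild type replicate 3 far below the other wild type libraries. MAM3, a related synthase, and CYP83B1, a P450 of the indole branch, passed (0.54, adjusted p = 0.0336, and 0.48, adjusted p = 0.0451) but failed without wild type replicate 3 (adjusted p = 0.0727 and 0.112). CYP83A1, a P450 of the aliphatic branch, had 129, 72.1 and 124 CPM in OK100-oct and 60.1, 91.1 and 19.6 CPM in the wild type and did not pass (adjusted p = 0.230). Without wild type replicate 3, 3 genes of the list passed (SOT16, MYB51 and MAM1) and the median was 0.42. The summed levels were 1489.6, 1012 and 1423 CPM in OK100-oct, against 893, 1023 and 553 CPM in the wild type, and overlapped.

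The flavonoid pathway had the highest median of the lists with more than 2 tested genes. Of 20 tested genes of flavonoid and anthocyanin synthesis 5 were higher and none was lower, against 2.58% and 2.29% of all tested genes. The median was 1.02, and it was 0.76 with 4 genes higher without wild type replicate 3. TT4 (AT5G13930, chromosome 5, 4488476 to 4490264), chalcone synthase and the entry to the pathway, had 188, 158 and 178 CPM in OK100-oct, against 61.3, 60.9 and 45.8 CPM in the wild type. Means were 175 ± 15.2 CPM in OK100-oct and 56.0 ± 8.85 CPM in the wild type (SD, n = 3 each), and the difference was the most firmly called of the list (log2 fold change 1.64, SE 0.14, adjusted p = 2.38e-05). TT5, chalcone isomerase and the next step, had 21.6, 17.36 and 18.6 CPM in OK100-oct, against 11.9, 8.73 and 8.93 CPM in the wild type (log2 fold change 0.96, SE 0.15, adjusted p = 0.00414). FLS1, flavonol synthase, had 38.4, 27.0 and 30.3 CPM in OK100-oct, against 17.7, 15.1 and 9.55 CPM in the wild type (log2 fold change 1.18, SE 0.19, adjusted p = 0.00414). None of these overlapped between the genotypes, and 2334 of all 20617 tested genes were separated in this direction. With only the 6 control libraries fitted, TT4 and TT5 passed (adjusted p = 0.00250 and 0.0447) and FLS1 did not (adjusted p = 0.0671).

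F3H, flavanone 3-hydroxylase, also passed (0.55, adjusted p = 0.0132), but 93.2% of its windows are shared with AT3G51238 on the opposite strand. TT8, a bHLH factor of the late steps, had 1.91, 1.28 and 1.35 CPM in OK100-oct, against 0.752, 0.723 and 0.672 CPM in the wild type (1.08, adjusted p = 0.0276), and failed without wild type replicate 3 (adjusted p = 0.0816). The late anthocyanin genes had no uniform pattern. DFR, dihydroflavonol reductase, had 5.69, 0.494 and 4.21 CPM in OK100-oct and 1.3, 1.78 and 0.0960 CPM in the wild type (adjusted p = 0.247), with OK100-oct replicate 2 inside the wild type range, and LDOX, the next enzyme, had 5.47, 1.07 and 3.51 CPM in OK100-oct and 1.5, 2.67 and 0.528 CPM in the wild type (adjusted p = 0.300). PAP1, the MYB activator of anthocyanin synthesis, and MYB12, the activator of flavonol synthesis, did not pass (1.31, adjusted p = 0.0696, and 0.77, adjusted p = 0.0758).

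**Figure D3:**
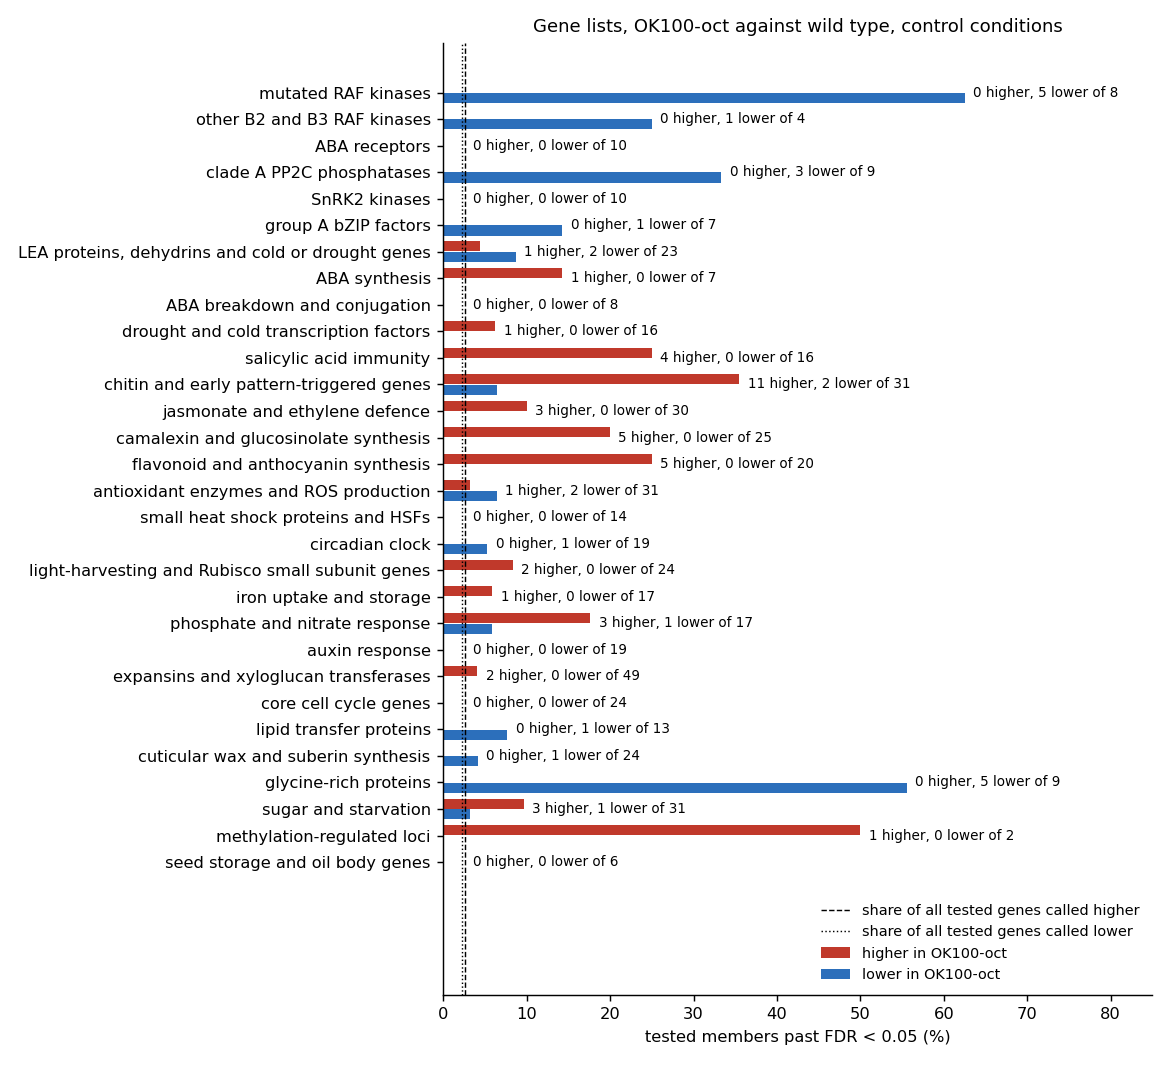
Share of the tested members of each gene list that passed an FDR < 0.05 (x axis, percent), higher in OK100-oct in red and lower in blue, with the counts beside the bars. The dashed and dotted lines mark the shares of all tested genes, 2.58% higher and 2.29% lower. The chitin list has 11 of 31 genes higher, while the ABA receptors and SnRK2 kinases have none in either direction.

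The largest single differences were in genes with little or no expression in the wild type. MRD1 (AT1G53480), named for its lower level in a methionine-overproducing mutant, had 20.8, 18.5 and 19.6 CPM in OK100-oct, against 0, 0.0556 and 0 CPM in the wild type, which is 1485 counts in OK100-oct and 1 count in the wild type. The ratio was 1156, with an exact 95% counting interval of 207 to 45676. The non-coding RNA AT2G01422 had 36.5, 35.7 and 27.2 CPM in OK100-oct, against 0.0501, 0.111 and 0 CPM in the wild type, from 2508 and 3 counts, a ratio of 651 (222 to 3157). These intervals cover counting error only. QQS (AT3G30720), a gene found only in Arabidopsis thaliana that influences starch content and whose expression is known to vary with DNA methylation, had 26.4, 28.4 and 23.4 CPM in OK100-oct, against 0.401, 0.445 and 1.06 CPM in the wild type (log2 fold change 5.33, SE 0.25, adjusted p = 7.06e-08). SDC and FWA, which are also silenced by methylation, were not tested for low counts and had at most 0.37 and 0.0501 CPM. MRD1 shares 75.8% of its windows with HEI10, a meiotic crossover gene on the opposite strand that was itself called, with 9.43, 9.998 and 10.7 CPM in OK100-oct, against 3.36, 2.73 and 3.07 CPM in the wild type (1.71, adjusted p = 7.52e-05), so the reads of the pair cannot be assigned with certainty.

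Other genes called at least 3-fold higher were of varied kinds. AT5G60250, a RING zinc finger gene, had 3.48, 2.92 and 3.72 CPM in OK100-oct, against 0.301, 0.445 and 0.480 CPM in the wild type (log2 fold change 3.03, SE 0.23, adjusted p = 1.23e-05), with 10.4% of its windows shared with the opposite-strand gene AT5G60260. AT5G35940, a mannose-binding lectin gene, had 23.5, 24.0 and 28.1 CPM in OK100-oct, against 5.36, 4.84 and 6.39 CPM in the wild type (log2 fold change 2.18, SE 0.20, adjusted p = 6.97e-05). CAX3, a vacuolar calcium exchanger, had 5.35, 6.95 and 6.98 CPM in OK100-oct, against 0.752, 0.834 and 1.87 CPM in the wild type (log2 fold change 2.45, SE 0.26, adjusted p = 0.000213). GolS4, a galactinol synthase of the raffinose pathway, had 1.12, 1.07 and 1.72 CPM in OK100-oct, against 0.200, 0.223 and 0.0960 CPM in the wild type (2.89, adjusted p = 0.000506). GolS4 overlaps AT1G60460 on the opposite strand.

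ABCG39, a transporter of the pleiotropic drug resistance type, had 2.73, 2.3 and 2.25 CPM in OK100-oct, against 0.601, 0.723 and 0.240 CPM in the wild type (2.23, adjusted p = 0.00366). WRKY59, a WRKY factor, had 1.61, 1.32 and 1.59 CPM in OK100-oct, against 0.301, 0.278 and 0.336 CPM in the wild type (2.28, adjusted p = 0.0155). The peroxidase genes AT4G36430 and AT2G18150, the dirigent-like gene AT4G11210, the phloem lectin gene PP2-B13, the CAP protein gene AT4G33720 (of the family of PR1), AT3G22235 (a cysteine-rich membrane module protein), AT5G44568 and the pseudogenes AT1G67626 and AT5G28335 had log2 fold changes between 2.14 and 4.28. AT3G22235, PP2-B13 and AT5G28335 share 67.5%, 57.2% and 63.4% of their windows with other genes and AT1G67626 shares 46.1%, so their reads are uncertain. AT2G18150 failed without wild type replicate 3 (adjusted p = 0.0675). AT4G13550, a putative triglyceride lipase gene, had one of the lowest p of all genes at less than 3-fold, with 32.8, 45.2 and 42.2 CPM in OK100-oct, against 15.5, 13.8 and 14 CPM in the wild type (log2 fold change 1.47, SE 0.11, adjusted p = 1.23e-05). Of the 73 genes 15 had a mean under 1 CPM in OK100-oct. Replicates did not overlap in any of the 73, against 2334 of all 20617 tested genes.

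**Figure D4:**
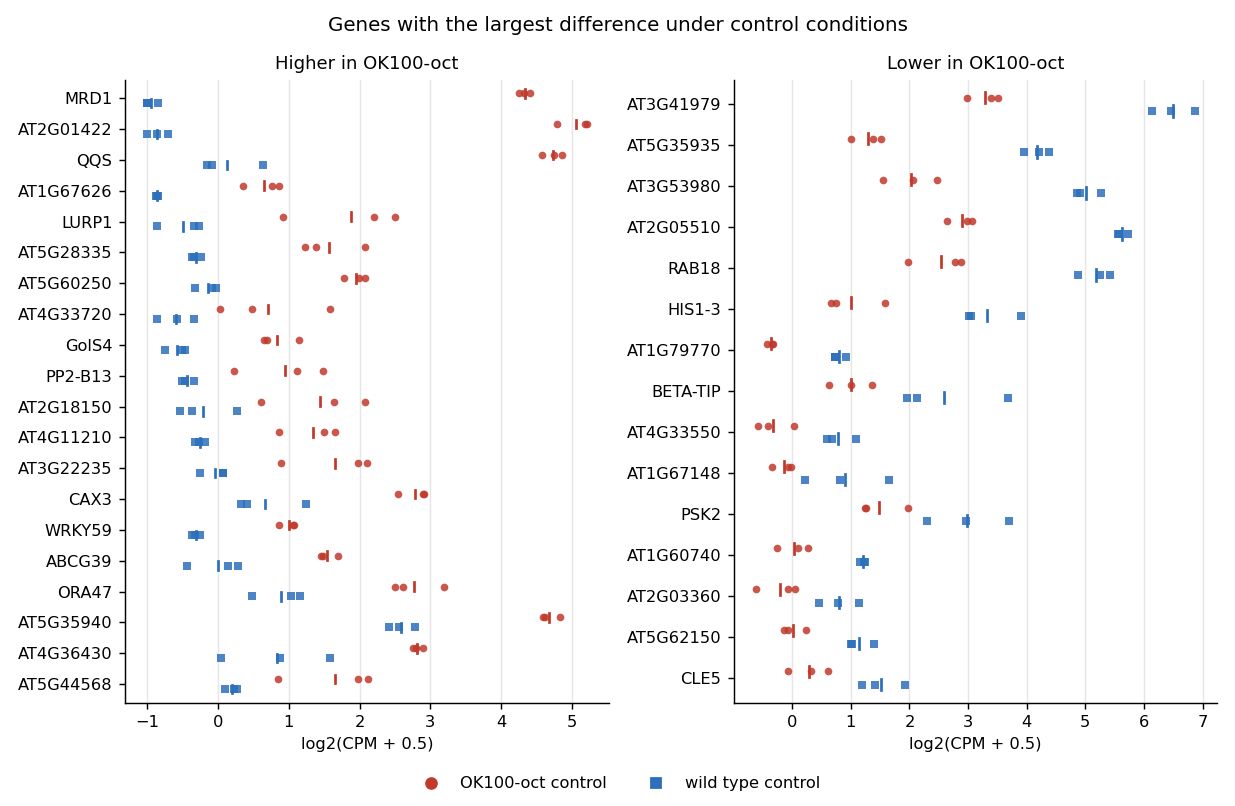
Levels in each control library of the 20 higher (left) and 15 lower (right) genes with the largest fold change among called genes whose replicates did not overlap and whose higher mean reached 1 CPM, as log2(CPM + 0.5). Red circles are the OK100-oct libraries, blue squares the wild type libraries and vertical bars the means. MRD1, AT2G01422 and QQS lie between 18.5 and 36.5 CPM in OK100-oct and at no more than 1.06 CPM in the wild type.

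Lower genes included several of secreted and glycine-rich proteins. In the list of glycine-rich proteins 5 of 9 tested genes were lower and none was higher, against 2.29% and 2.58% of all tested genes. The members of this list were chosen with earlier results of these data known, so the count is only a description. The median of the list was -0.44. AT2G05510, a glycine-rich protein gene, had 7.41, 7.90 and 5.72 CPM in OK100-oct, against 47.2, 52.5 and 46.6 CPM in the wild type, with means of 7.01 ± 1.15 CPM in OK100-oct and 48.8 ± 3.26 CPM in the wild type (SD, n = 3 each; log2 fold change -2.80, SE 0.15, adjusted p = 4.02e-07). GRP3S, a short isoform relative of a protein that binds the wall-associated kinase WAK1, had 157, 177 and 137 CPM in OK100-oct, against 394, 323 and 508 CPM in the wild type (log2 fold change -1.38, SE 0.14, adjusted p = 0.000213). GRP9, another secreted glycine-rich protein, had 91.6, 72.2 and 60.4 CPM in OK100-oct, against 198, 191 and 232 CPM in the wild type (log2 fold change -1.47, SE 0.18, adjusted p = 0.000820). AT2G05510, GRP3S and GRP9 lie on chromosome 2, start at bases 2015624, 1966610 and 1993038, and share no more than 1.35% of their windows with other genes. GRP23 and the cold shock domain protein gene GRP2 were lower by smaller amounts (-1.0, adjusted p = 0.0157, and -0.44, adjusted p = 0.0336), and GRP2 failed without wild type replicate 3 (adjusted p = 0.0701). GRP7 and GRP8, RNA-binding proteins under circadian control, did not pass.

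AT3G53980 (chromosome 3, 19987562 to 19988463), which encodes a protein of the lipid-transfer family, had 5.05, 3.66 and 2.41 CPM in OK100-oct, against 29.6, 28.4 and 38.2 CPM in the wild type (log2 fold change -3.10, SE 0.21, adjusted p = 3.07e-06). It was the only 1 of 13 tested lipid transfer protein genes to pass, against 2.29% of all tested genes called lower. That list, too, was chosen with earlier results of these data known. AT2G37870 and AT4G33550, of the same protein family but outside the list, were also among the 29. AT2G37870 had 2 counts in OK100-oct and 58 in the wild type, a ratio of 37.3 (exact 95% counting interval 9.86 to 315), and was chosen after its values were seen. AT4G33550 had 0.524, 0.247 and 0.163 CPM in OK100-oct, against 1.1, 1.61 and 1.01 CPM in the wild type (-1.93, adjusted p = 0.00704). PSK2, a precursor of the growth peptide phytosulfokine, had 1.87, 3.42 and 1.88 CPM in OK100-oct, against 7.27, 4.39 and 12.5 CPM in the wild type (-1.77, adjusted p = 0.0147), and CLE5, a signaling peptide gene, had 0.749, 1.03 and 0.449 CPM in OK100-oct, against 3.31, 2.17 and 1.78 CPM in the wild type (-1.70, adjusted p = 0.00850). PSK2 passed in 4 of the 6 fits that left out 1 control library, and CLE5 in all 6.

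BETA-TIP, a tonoplast aquaporin gene of seeds, had 1.05, 2.06 and 1.51 CPM in OK100-oct, against 3.86, 3.39 and 12.3 CPM in the wild type (-2.1, adjusted p = 0.0255), with wild type replicate 3 more than 3-fold above the other wild type libraries, and failed without it (-1.25, adjusted p = 0.0633). AT1G67148, with 0.487, 0.453 and 0.286 CPM in OK100-oct, against 1.25, 0.668 and 2.64 CPM in the wild type, failed without it too (adjusted p = 0.147). AT5G35935, an annotated pseudogene, had 2.1, 2.35 and 1.51 CPM in OK100-oct, against 20.4, 15 and 18.1 CPM in the wild type (log2 fold change -3.16, SE 0.26, adjusted p = 1.74e-05), and the pseudogene AT4G04410 had 4.72, 4.44 and 4.98 CPM in OK100-oct, against 14.3, 15.4 and 14 CPM in the wild type (-1.63, adjusted p = 1.36e-05). AT3G41979 is annotated as 5.8S ribosomal RNA and had 7.38, 9.96 and 10.9 CPM in OK100-oct, against 69.7, 87.3 and 117 CPM in the wild type, but all of its windows are found in AT2G01020, so its counts are uncertain. Counts on ribosomal RNA genes made up 0.0957% to 0.114% of the total in OK100-oct and 0.112% to 0.135% in the wild type. Genes of a thioredoxin-like protein (AT1G60740), a DUF1677 protein (AT1G79770), a family 61 glycosyltransferase (AT2G03360) and a LysM domain protein (AT5G62150) complete the 15 lower genes of the plot of largest differences, at no more than 2.11 CPM in any of the 6 libraries. Of the 29 genes 10 had a mean under 1 CPM in the wild type, and replicates did not overlap in 28 of them, against 2003 of all tested genes.

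Metabolism and growth showed scattered calls. CSD1 and CSD2, the cytosolic and chloroplast copper/zinc superoxide dismutases, were both lower, the only lower genes among 31 tested antioxidant and ROS production genes. Of all tested genes, 2.29% were lower. CSD2 had 29.1, 25.9 and 29.6 CPM in OK100-oct, against 50.3, 55.9 and 48.5 CPM in the wild type (log2 fold change -0.87, SE 0.09, adjusted p = 0.000164), and CSD1 had 24.4, 28.0 and 26.3 CPM in OK100-oct, against 40.2, 46.3 and 50.9 CPM in the wild type (log2 fold change -0.80, SE 0.10, adjusted p = 0.000705). SUS1, a sucrose synthase gene, had 49.4, 66.9 and 71.5 CPM in OK100-oct, against 28.8, 32.9 and 30.8 CPM in the wild type (log2 fold change 1.02, SE 0.14, adjusted p = 0.00122). TPPI, a trehalose phosphate phosphatase, and BAM3, the main chloroplast beta-amylase, were higher as well (1.11, adjusted p = 0.0125, and 0.37, adjusted p = 0.0222), and the sugar transporter gene SWEET3 was lower with 0, 0.288 and 0 CPM in OK100-oct, against 0.551, 0.612 and 1.25 CPM in the wild type (-3.05, adjusted p = 0.0390). BAM3 and SWEET3 failed without wild type replicate 3 (adjusted p = 0.0590 and 0.123). Of 31 tested sugar and starvation genes, 3 were higher and 1 was lower, against 2.58% and 2.29% of all tested genes. The median of that list was 0.17. PHO2, the ubiquitin conjugase that limits phosphate uptake, had 85.9, 120.3 and 105 CPM in OK100-oct, against 165, 172 and 203 CPM in the wild type (log2 fold change -0.80, SE 0.11, adjusted p = 0.00232). SPX1, PAP17 and SQD1, genes induced by phosphate starvation, were higher (0.57, adjusted p = 0.0346, 1.07, adjusted p = 0.0241, and 0.51, adjusted p = 0.00482), and SPX1 and PAP17 failed without wild type replicate 3 (adjusted p = 0.0859 and 0.0639). Of 17 tested phosphate and nitrate genes, 3 were higher and 1 was lower, beside the same shares of all tested genes. The median of this list was 0.02, and 10 of its genes were above 0, against 10234 of all 20617 tested genes.

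TOC1, an evening gene of the circadian clock, had 206, 254 and 255 CPM in OK100-oct, against 304, 367 and 415 CPM in the wild type (-0.61, adjusted p = 0.0129) and was the 1 clock gene of 19 to pass. It did not pass with only the 6 control libraries fitted (adjusted p = 0.129). Of 24 light-harvesting and Rubisco small subunit genes, RBCS2B and LHCB4.3 were higher (0.48, adjusted p = 0.0319, and 0.70, adjusted p = 0.0333), and the median of the list was -0.01. RBCS2B shares 16.9% of its windows with its paralogs and failed without wild type replicate 3 (adjusted p = 0.0530). The counts of 1 or 2 genes a list given here stand beside 2.58% higher and 2.29% lower of all tested genes and are few enough to be near them. Of 49 expansin and xyloglucan transferase genes, the wall-loosening XTH33 and XTH14 were higher (1.24, adjusted p = 0.0280, and 0.49, adjusted p = 0.0479), of 17 iron genes the transporter OPT3 (0.56, adjusted p = 0.0277) and of 16 drought and cold transcription factor genes MYB96, a regulator of wax synthesis (0.45, adjusted p = 0.0388). All of these 4 failed without wild type replicate 3, MYB96 with an adjusted p of 0.0650. CYP86A1, the root suberin hydroxylase, was the only lower gene of 24 for cuticular wax and suberin (-0.64, adjusted p = 0.00974). It did not pass with only the 6 control libraries fitted (adjusted p = 0.106). None of 19 auxin response genes, 24 core cell cycle genes, 14 small heat shock protein and heat shock factor genes and 6 seed storage and oil body genes passed. In the cell cycle list 20 of 24 genes had a log2 fold change above 0, against 10234 of all 20617 tested genes. The median was 0.30, and 0.22 without wild type replicate 3. By the lowest p, the nearest were CDKB1;2 for the cell cycle (0.65, adjusted p = 0.0701), HSFB2B for heat (0.40, adjusted p = 0.0521) and M10 for seed proteins (-1.67, adjusted p = 0.199).

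The genotype comparison was then read in the 6 ABA-treated libraries, which the control comparison did not use except through the shared estimate of the spread. With ABA, 21.3% of all tested genes were higher and 20.7% were lower in OK100-oct at an FDR < 0.05. Of the 73 genes higher under control conditions, 65 had the same sign with ABA, 51 were higher at the FDR, 3 were lower and 19 did not pass. Of the 29 lower genes, 24 had the same sign, 20 were lower, 3 were higher and 6 did not pass. The median log2 fold change of the 73 genes was 2.04 under control conditions and 2.11 with ABA, and that of the 29 genes was -2.26 and -1.68.

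AT2G01422 had 30.9, 32.0 and 27.7 CPM in ABA-treated OK100-oct, against 0 counts in all 3 ABA-treated wild type libraries, and MRD1 had 15.7, 15.6 and 14.3 CPM in ABA-treated OK100-oct, against 0.182, 0 and 0 CPM in the ABA-treated wild type. QQS had 36.8, 30.8 and 30.8 CPM in ABA-treated OK100-oct, against 1.18, 2.01 and 1.13 CPM in the ABA-treated wild type (4.48). RAB18 differed by -3.5, HIS1-3 by -3.01 and AT3G53980 by -1.68 with ABA. All of these passed the FDR. For the flavonoid gene TT4 the log2 fold change with ABA was 0.04 (adjusted p = 0.814), with 92.9, 86.8 and 89.3 CPM in ABA-treated OK100-oct, against 77.2, 77.9 and 106 CPM in the ABA-treated wild type. LURP1 had 1.69 with ABA and did not pass (adjusted p = 0.290).

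Of the 102 genes called with the 3-fold minimum, those with opposite directions at the FDR were few and chosen after their values were seen. AT2G22590 (a glycosyltransferase), AT4G34380 (a WD40 protein) and AT5G14650 (a pectin lyase-like protein) were higher under control conditions and lower with ABA, at log2 fold changes of 1.62 and -1.53, 1.77 and -1.35, and 2.93 and -2.39. AT1G60740, AT1G79770 and AT2G28270 (a C1 domain protein) were lower under control conditions and higher with ABA, at -1.75 and 1.93, -2.12 and 2.34, and -2.18 and 2.92. Without wild type replicate 3, AT4G34380 and AT2G28270 did not pass under control conditions (adjusted p = 0.0753 and 0.108). Named genes below 3-fold also turned, including SUS1, TT8, PAP17 and TT5, which were higher under control conditions. With ABA their log2 fold changes were -1.43, -1.15, -1.02 and -0.60, and all 4 passed the FDR. The difference of the genotype effect between the treatments passed an FDR < 0.05 for 16 of the 73 and 10 of the 29 genes, against 18.17% of all tested genes, but that test shares the control libraries by which the genes were chosen.

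The lists were also counted in the ABA-treated libraries, with no test between the treatments. All 23 LEA, dehydrin and cold or drought genes and all 9 PP2C genes were lower in OK100-oct with ABA, against 2 and 3 under control conditions. In the chitin list 16 genes were higher and 4 lower with ABA, in the salicylic acid list 9 and 0, in camalexin and glucosinolate synthesis 22 and 0, and in flavonoid synthesis 6 and 3. These numbers stand beside the background of 21.3% higher and 20.7% lower with ABA. The median log2 fold change of the chitin list was 0.41 with ABA, against 0.47 under control conditions.

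**Figure D5:**
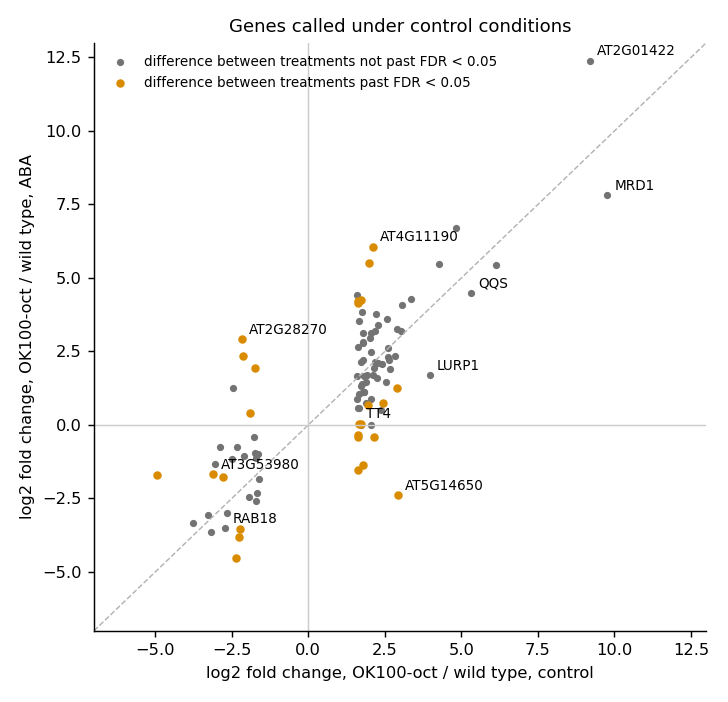
Log2 fold change of OK100-oct over the wild type under control conditions (x axis) and with ABA (y axis) for the 102 genes called under control conditions. Orange points passed an FDR < 0.05 for the difference between treatments, and the dashed line marks equal values. The value of AT2G01422 with ABA rests on 0 counts in the wild type and so depends on the prior count of the fit. Most points lie in the upper right and lower left, TT4 lies near 0 with ABA, and AT5G14650 and AT2G28270 lie in opposite quadrants.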

How the data were processed

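The study sequenced RNA of OK100-oct and wild-type seedlings with and without ABA, and the authors deposited gene counts without normalization. Per the submitters' processing notes, reads were trimmed with Trimmomatic 0.36, mapped to TAIR10 with HISAT2 2.1.0 and counted with HTSeq 0.9.1. The methods give other Trimmomatic and HTSeq versions, RNA reagents and library kits, and no strand setting. The methods give an ABA dose and duration for another assay of seedlings and none for the sequenced libraries. No column was left unused.

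The 12 libraries were fitted as 4 group means with edgeR 4.0.16 in R 4.3.3 (TMM factors, filterByExpr, quasi-likelihood test, Benjamini-Hochberg adjustment over 20617 genes), and contrasts compared the genotypes within each treatment. Genes were called at an FDR < 0.05 with a 3-fold minimum, as in the study. A second rule, not from the study, used the FDR alone and served for the counts of list members. The biological coefficient of variation over the 12 libraries was 11.9%. Control libraries held 16632701 to 24048676 counts, and counting error is larger than that variation for genes of few counts. The procedure was tested on simulated data. Loci absent from the annotation of TAIR10.1 (32835 of 33602 matched) held 0.0614% to 0.0763% of the counts. Shared sequence is the percent of 50-base exon windows of a gene found in other genes of the table on either strand.

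The members and the gene lists were chosen with earlier results of these data known, so a list is described by its counts and median and has no test of its own. Genes were named by rule: the 8 mutated RAF genes; RAB18, COR15A, KIN1 and RD29B; the 20 higher and 15 lower 3-fold genes with the largest change, whose replicates did not overlap and whose higher mean reached 1 CPM; in each list up to 6 members past the FDR with the lowest p, or else the member with the lowest p; and the 5 genes in each direction with the lowest p. Of the list members, 2 are not reported here. Other members of the lists are given with the account of their list. Alternatives were DESeq2 1.42.0, limma 3.58.1 (voom with sample weights), other normalizations, filters and thresholds, a replicate block, only the control libraries, nuclear genes only and leaving out each control library. Python 3.11.15 with matplotlib 3.10.9 drew the figures.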

Additional observations from a re-analysis of the deposited data

Results flagged for a closer look

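For 41 of the named genes, the genotype difference with ABA and that under control conditions differed by a test of the difference itself (edgeR's interaction term, FDR < 0.05, 18.17% of all tested genes). The values below are log2 fold changes with ABA minus those under control conditions. The test uses the control libraries by which many of these genes were chosen, so they are given as a description.

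In the ABA pathway the differences were negative, so OK100-oct stood lower relative to the wild type with ABA than without it. They were -1.91 for COR15A, -2.14 for KIN1, -2.17 for RD29B, -2.23 for ERD10, -1.57 for LEA7, -1.39 for PP2CA, -1.15 for ABI2, -1.44 for HAI1, -1.08 for ABI5 and -0.73 for SnRK2.6. Genes of ABA synthesis and breakdown and a drought factor gave -2.43 (NCED3), -1.98 (CYP707A1) and -1.47 (MYB96).

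Flavonoid genes gave -1.60 (TT4), -1.56 (TT5), -0.84 (FLS1), -0.48 (F3H) and -2.23 (TT8), again negative. Defence genes gave positive values of 0.67 (WRKY29), 0.80 (RBOHD), 0.75 (AOC1), 1.09 (ERF2), 2.48 (MAM3, a glucosinolate synthase) and 0.68 (CYP83B1, of the indole branch).

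Glycine-rich protein genes gave 1.04 (GRP3S), 1.07 (GRP9), 0.81 (GRP2) and 1.02 (AT2G05510). Among genes of sugar, phosphate, photosynthesis and cell wall the values were -2.45 (SUS1), 1.0 (BAM3), 0.98 (PHO2), -2.09 (PAP17), -1.03 (SPX1), 0.54 (RBCS2B) and -0.86 (XTH14). Of the genes with the largest differences, GolS4 gave -1.65, CAX3 -1.70, AT3G53980 1.42, AT1G79770 4.46, AT1G67148 2.31 and AT1G60740 3.68.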

How the results depend on the processing

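The counts of calls moved with the spread and the filter. In what follows the 3-fold counts are 73 higher and 29 lower, and the FDR counts are 532 and 472. With at least 10 counts in every library, 15 and 11 genes were 3-fold higher and lower, of which 11 and 10 had the same direction with ABA and 7 differed between treatments (51, 20 and 26 in the full fit). Only the 6 control libraries gave 29 and 10, and 63 and 48 at the FDR. limma voom gave 49 lower with 3-fold and 745 at the FDR, DESeq2's Wald test 821 and 715 at the FDR, a 2-fold minimum 174 and 96, an unadjusted p 2216 and 2231, and an unadjusted p with the 3-fold minimum 53 lower. Leaving out each control library gave 54 to 84 higher and 19 to 45 lower genes with 3-fold, and 202 to 839 and 142 to 909 at the FDR, 43 to 59 and 16 to 28 with the same direction with ABA and 18 to 32 that differed between treatments. The lowest FDR counts were without OK100-oct replicate 3 and the highest without wild type replicate 2.

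A replicate block gave 349 higher and 277 lower genes at the FDR. Same-numbered libraries deviated together with correlations of 0.35, -0.45 and -0.00464, so the numbers were not taken to pair the libraries. Over the 107 named genes, 1369 of 1576 values under the alternatives kept their direction and side of the FDR threshold, and 195 no longer passed. Of these, 53 were with only the control libraries, 30 without OK100-oct replicate 3, 25 without OK100-oct replicate 1 and 22 without wild type replicate 3. A further 11 came to pass, and 1 turned round, COR15A at -0.053 with limma voom. Its log2 fold change was 0.15 and not past the threshold. The causes were not tested. DESeq2 size factors or library totals moved the median of all genes to no more than 0.0119 (log2). Genes under 1 CPM are limited by depth.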

Other observations

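Pseudogenes were frequent on the 3-fold lists. Pseudogenes and transcribed pseudogenes together were 8 of the 73 higher genes (8.22% and 2.74%) and 3 of the 29 lower genes (10.3% and 0), against 0.645% and 0.567% of all tested genes. Most of them were counted at a few CPM or less, and several share sequence with other loci.

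Of the 102 called genes, 12 lay within 20 kb of another called gene, in 6 pairs. No background for this count was determined, so it is only a description. In 4 pairs both genes were higher, namely MRD1 with HEI10, the phloem lectin genes PP2-B13 with PP2-B14, ABCG39 with the triterpene cyclase gene LUP5, and the dirigent-like genes AT4G11190 with AT4G11210. PP2-B13 shares 57.2% of its windows with other genes, PP2-B14 among them. PP2-B14 and LUP5 did not pass without wild type replicate 3 (edgeR, adjusted p = 0.127 and 0.126). In the other 2 pairs the directions were opposite. The pseudogene AT5G35935 was lower (-3.16) and its neighbour AT5G35940 higher (2.18), and the pseudogene AT5G28335 was higher (3.05) and its neighbour AT5G28340, a TPR protein gene, lower (-2.46). AT5G28335 and AT5G28340 share 63.4% and 89.5% of their windows with other genes, so the reads of this pair are uncertain. AT5G28340 had 0.262, 0.165 and 0.449 CPM in OK100-oct, against 2.86, 1.67 and 0.384 CPM in the wild type, so that wild type replicate 3 lay within the OK100-oct range.

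FLC, the repressor of flowering, was the 1 gene of 5 tested flower markers to pass, with 6.66, 4.57 and 3.84 CPM in OK100-oct, against 7.87, 9.07 and 12.7 CPM in the wild type (-0.97, adjusted p = 0.0455, and adjusted p = 0.138 without wild type replicate 3). Of all tested genes, 2.29% were lower. None of the 6 tested senescing leaf markers passed, and SAG12 was at 0 counts.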
